A study of Mus musculus with 8 samples.

Results

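The genes described here encode 10 scavenger receptors of macrophages, many of which bind modified lipoproteins and other polyanionic or lipid ligands: *Cd36*, *Msr1*, *Marco*, *Scarb1*, *Scarb2*, *Olr1*, *Cd68*, *Cd163*, *Stab1* and *Cxcl16*. They were chosen by name as the scavenger and oxidized LDL receptors of the series, and each symbol matched 1 gene of the 48795 in the files. Polyadenylated RNA of peritoneal macrophages (pMacs) was sequenced from WT mice (n = 4) and CD1d-KO mice (n = 4), with 1 library per mouse and no stimulus named in the labels. CD1d is an MHC class I-like molecule that presents lipids to natural killer T (NKT) cells. For this sequencing the study states that the controls of the CD1d-KO mice were littermates. Its methods name WT C57BL/6 mice and 2 kinds of CD1d-KO mice, matched for age and sex. One is the strain B6.129S6-Del(3Cd1d2-Cd1d1)1Sbp/J. The other crosses a floxed CD1d allele with PGK Cre. Which of these was sequenced is not given in the sources used here. The first carries a germline deletion of *Cd1d1* and *Cd1d2*, PGK drives Cre throughout the body, and mice without CD1d also lack NKT cells, so none of these models is specific to macrophages.

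Scavenger receptors are cell surface and endosomal proteins of unrelated structure, many of which take up oxidized or acetylated low density lipoprotein (LDL). Most of them are not shut down when a cell fills with cholesterol, and in artery walls their uptake of modified LDL turns macrophages into foam cells. Resident macrophages of the peritoneum also use them to bind bacteria, apoptotic cells and free fatty acids. They are grouped into classes by structure, and the classes give the order in which the genes are described below.

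Between 13698864 and 19059432 expected counts were assigned to genes per library. The replicate numbers 1, 2, 3 and 5 occur in both genotypes and make 4 pairs. The deleted gene *Cd1d1* had 60.7 normalized counts, which are counts scaled to a common library size, in the library labelled CD1d-KO replicate 1. It had 68.2 to 175 counts in the WT libraries and 0 to 1.14 in the other CD1d-KO libraries, so values without replicate 1 are given for each receptor and for the related lists. All 10 markers of peritoneal macrophages (among them *Adgre1*, *Csf1r*, *Gata6* and *Timd4*) had more than 3 normalized counts in every library. Their sum ranged from 380728 to 443230 over the WT libraries and from 327044 to 396055 over the CD1d-KO libraries. Most of it was *Lyz2*, whose mean was 267294 for WT and 231789 for CD1d-KO mice. Of the 10 markers, 6 had a log2 fold change above 0 and 4 below, with a median of 0.05. RNA of other cells was also present. The 5 markers of B cells summed to 1034 to 2774 counts in WT and 553 to 4770 in CD1d-KO libraries. The 8 markers of small peritoneal macrophages and dendritic cells summed to 4879 to 9233 and 3517 to 11361, most of it *H2-Aa* and *Retnla*. In both genotypes *H2-Aa* was lowest in replicate 2 and highest in replicate 5, as the B cell sum was, and which cells it came from was not tested. The 5 T and NK cell markers summed to 18.3 to 32.7 and 11.4 to 24.3 counts, and the 4 mast cell markers to 51.7 to 141 and 27.5 to 112. The 4 neutrophil markers summed to 45.7 to 53.7 in WT and 82.2 to 92.3 in CD1d-KO libraries, of which *S100a8* made up nearly all, with *Ly6g*, *S100a9* and *Retnlg* at 3 counts or fewer. The T and NK cell sum was lower and the neutrophil and erythroid sums were higher in CD1d-KO pMacs in each pair, and their part in the receptor values was not tested. Eosinophil markers summed to 15.7 to 40.8 and 15.2 to 54.9 counts, with *Epx* and *Ear6* at 3 or fewer, and erythroid markers to 1.07 to 56.9 and 2.29 to 251. The 4 mesothelial markers (*Msln*, *Upk3b*, *Krt19* and *Upk1b*) had 3 counts or fewer in every library. The Y-linked genes *Ddx3y*, *Uty* and *Eif2s3y* also had at most 3 counts in each library, and *Kdm5d* at most 3.16. *Xist*, transcribed from the inactive X chromosome, had 7214 ± 824 counts in WT and 12180.2 ± 3092 in CD1d-KO libraries (SD, n = 4), with no overlap (log2 fold change 0.73, edgeR adjusted p = 0.0575), and DESeq2 called it.

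All 10 receptor genes were expressed in pMacs of both genotypes and passed the filter on low counts. The study applied its thresholds (adjusted p < 0.01, more than 1.5-fold) in DESeq2. At these thresholds none of the 10 passed in the quasi-likelihood test of edgeR, in which 0.0383% of the 13040 genes tested were called. The intervals of 5 genes excluded a fold change of 0 on the log2 scale before adjustment: *Cd163*, *Scarb1* and *Cd36* had lower and *Scarb2* and *Marco* higher means in CD1d-KO pMacs. Of all genes tested, 12.4% had an unadjusted p under 0.05, of which 958 were higher (7.35%) and 653 lower (5.01%). After adjustment over all genes none of the 10 was under 0.05, a level that 0.406% of all genes passed, or 0.368% with the fold change threshold added. DESeq2 called 1 of the 10, *Cd163*, where it called 0.873% of all genes (0.593% higher and 0.280% lower).

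The receptors had no common direction. The median log2 fold change over the 10 genes was 0.06, with 6 above and 4 below 0, and over all genes tested it was 0.01. The median log2 ratio within pairs 1, 2, 3 and 5 was -0.19, 0.02, -0.14 and 0.10. *Cd36*, *Scarb1* and *Cd163* were lower in CD1d-KO than in WT in each of the 4 pairs, as were 10.1% of all genes tested, and no receptor gene was higher in every pair, as 10.6% of all genes were. In TPM, RSEM's level scaled by depth and transcript length, *Scarb2* was higher in CD1d-KO pMacs in each pair, while *Scarb1* alone was lower in each. The normalized counts of the 4 WT and 4 CD1d-KO libraries did not overlap for *Cd36* alone among the 10, against 1.96% of all genes. In bulk RNA, a lower count can come from fewer cells that express a gene or from less RNA per cell, which cannot be told apart here.

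**Figure D1:**
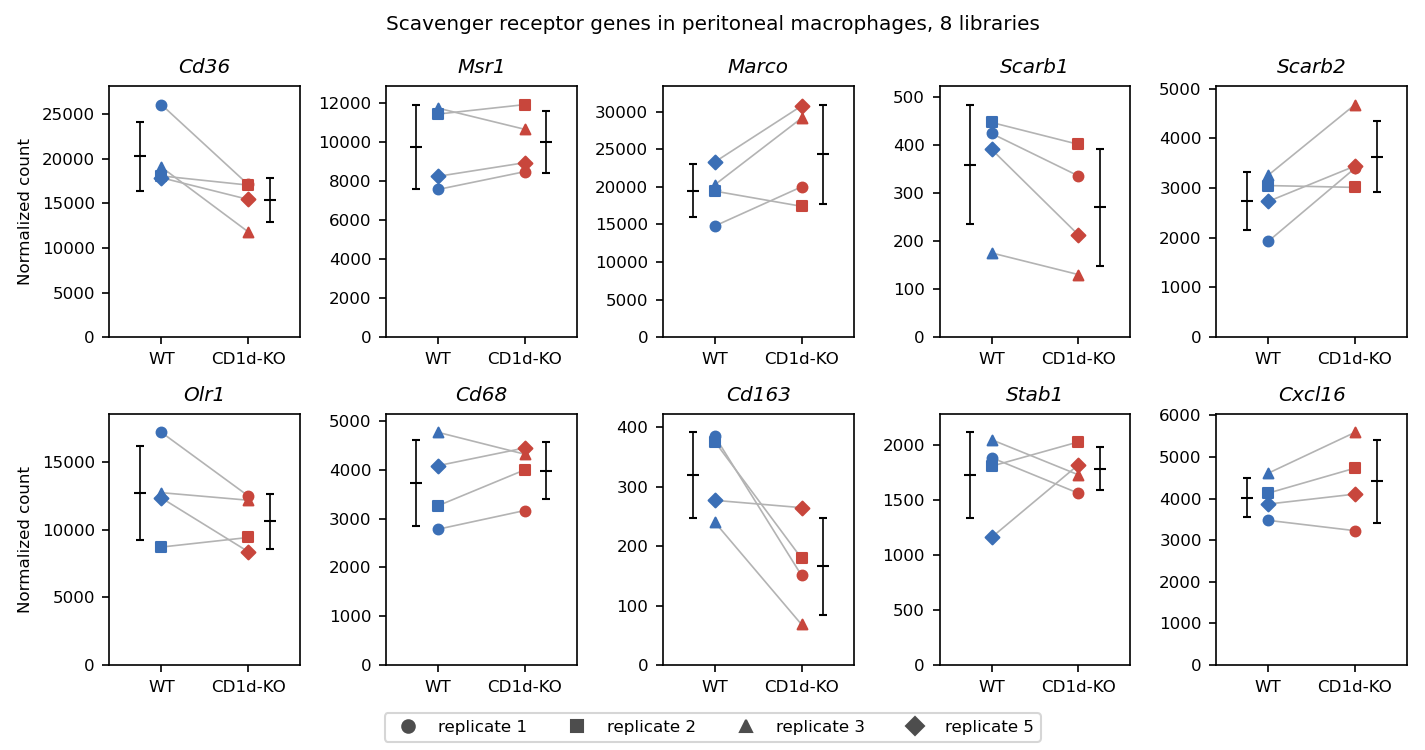
Normalized counts (vertical axes, linear and starting at 0) of the 10 receptor genes in pMacs (WT blue, CD1d-KO red), with grey lines joining libraries of the same replicate number and black bars for the mean and SD of each genotype (n = 4). All lines fall for *Cd36*, *Scarb1* and *Cd163*, and the WT and CD1d-KO points are separate only for *Cd36*, where WT replicate 1 lies at 26088 and the other WT libraries between 17886 and 19075.

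Class B receptors span the membrane at both ends and carry a large extracellular loop that binds lipids. *Cd36* (ENSMUSG00000002944) encodes the fatty acid translocase, which binds oxidized LDL, long-chain fatty acids and thrombospondin. It lies on chromosome 5 of GRCm38 from 17781690 to 17888801 on the minus strand. WT replicates 1, 2, 3 and 5 had 26088, 18086.5, 19075 and 17886 normalized counts of *Cd36*, and the CD1d-KO replicates of the same numbers had 17131, 17062, 11827 and 15456. Every WT library was above every CD1d-KO library, though the lowest WT value lay close to the highest CD1d-KO value. The mean was 20284 ± 3904 in WT and 15369 ± 2485 in CD1d-KO pMacs (SD, n = 4), 0.759-fold with a 95% interval of 0.628 to 0.917. The log2 fold change was -0.40 (standard error, SE, 0.12) and did not pass after adjustment (edgeR adjusted p = 0.226, DESeq2 adjusted p = 0.0419). Without replicate 1 the log2 fold change was -0.33 (edgeR adjusted p = 0.529). WT replicate 1 was far above the other WT libraries. In TPM the genotypes overlapped for *Cd36*, and in pair 2 the level was 876 TPM in WT and 902 TPM in CD1d-KO pMacs. Adipocytes, platelets and endothelial cells also express *Cd36*. The adipocyte markers *Adipoq*, *Plin1*, *Cidec* and *Lep*, the platelet marker *Gp9* and the endothelial markers *Emcn* and *Tie1* had 3 counts or fewer in each library. The 4 platelet markers summed to 23.2 to 39.7 counts in WT and 17.6 to 27.5 in CD1d-KO pMacs, and the 4 endothelial markers to 5.99 to 24.0 and 7.58 to 25.3. The platelet chemokine gene *Ppbp* had 23.6 ± 6.55 and 11.1 ± 4.47 counts, while *Gp1bb* had 1.05 ± 2.11 and 4.84 ± 1.43 and *Itga2b* 5.88 ± 4.02 and 7.06 ± 2.66, and the part of platelets in the *Cd36* values was not tested.

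*Scarb1* (ENSMUSG00000037936) encodes SR-BI, the receptor that takes cholesteryl ester from high density lipoprotein and moves free cholesterol in both directions. It lies on chromosome 5 from 125277087 to 125341094 on the minus strand. For *Scarb1*, WT replicates 1, 2, 3 and 5 had normalized counts of 424, 447, 175 and 391, and the CD1d-KO replicates 336, 402, 130.4 and 213. The libraries of replicate 3 were the lowest of both genotypes. The groups overlapped also apart from replicate 3, as CD1d-KO replicate 2 (402) was above WT replicate 5 (391). Each CD1d-KO library was below its WT partner. The mean was 359 ± 125 in WT and 270.3 ± 121.6 in CD1d-KO pMacs (SD, n = 4), 0.737-fold (95% interval 0.604 to 0.899). On the log2 scale the difference was -0.44 (SE 0.12, edgeR adjusted p = 0.207, DESeq2 adjusted p = 0.205), and without replicate 1 it was -0.48 (edgeR adjusted p = 0.417). In TPM the CD1d-KO library was again the lower of each of the 4 pairs.

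*Scarb2* (ENSMUSG00000029426) encodes LIMP-2, a class B protein that resides in the lysosomal membrane and carries the enzyme glucocerebrosidase there. It lies on chromosome 5 from 92441314 to 92506833 on the minus strand. In normalized counts, *Scarb2* stood at 1928, 3049, 3259 and 2730 in WT replicates 1, 2, 3 and 5 and 3399, 3012, 4677 and 3442 in the CD1d-KO replicates. The CD1d-KO library was clearly the higher of pairs 1, 3 and 5, while in pair 2 the libraries were nearly equal. The mean was 2741 ± 584 in WT and 3632 ± 723 in CD1d-KO pMacs (SD, n = 4), 1.33-fold (95% interval 1.09 to 1.64). The log2 fold change of 0.42 (SE 0.13) did not pass (edgeR adjusted p = 0.233, DESeq2 adjusted p = 0.0859), and it was 0.28 without replicate 1 (edgeR adjusted p = 0.530). *Scarb2* thus stood on the other side of 0 from the remaining class B genes.

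Class A receptors are trimers with a collagen-like stalk. *Msr1* (ENSMUSG00000025044), on chromosome 8 from 39581685 to 39642673 on the minus strand, encodes SR-A1, a main receptor for acetylated and oxidized LDL. The *Msr1* counts were 7573, 11439, 11742 and 8248 in WT replicates 1, 2, 3 and 5 and 8485, 11924, 10656 and 8946 in the CD1d-KO replicates. Replicates 2 and 3 were the higher libraries of both genotypes, and the genotypes overlapped over most of their range. The mean was 9750 ± 2146 in WT and 10003 ± 1585 in CD1d-KO pMacs (SD, n = 4). The log2 fold change of 0.05 had a 95% interval from -0.14 to 0.24 (edgeR adjusted p = 0.859), which leaves fold changes from 0.910 to 1.18, and without replicate 1 it was 0.01 (edgeR adjusted p = 0.982). *Msr1* was thus the receptor with the narrowest interval.

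*Marco* (ENSMUSG00000026390), on chromosome 1 from 120474538 to 120505024 on the minus strand, encodes a class A receptor that binds bacteria and is restricted to a few kinds of resident macrophages. Counts of *Marco* were 14784, 19418, 20267 and 23293 in WT replicates 1, 2, 3 and 5 and 19988, 17400, 29119 and 30747 in the CD1d-KO replicates. CD1d-KO replicates 3 and 5 were above every WT library, and pair 2 alone went the other way. The mean was 19440 ± 3522 in WT and 24314 ± 6608 in CD1d-KO pMacs (SD, n = 4), 1.23-fold (95% interval 1.01 to 1.499). A log2 fold change of 0.30 (SE 0.12) did not pass (edgeR adjusted p = 0.376, DESeq2 adjusted p = 0.276), and without replicate 1 it was 0.26 (edgeR adjusted p = 0.664).

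*Olr1* (ENSMUSG00000030162), on chromosome 6 from 129485244 to 129507165 on the minus strand, encodes LOX-1, a C-type lectin of class E that was first known as the oxidized LDL receptor of endothelium. *Olr1* was counted 17178, 8705, 12722 and 12331 times after normalization in WT replicates 1, 2, 3 and 5 and 12493, 9413, 12167 and 8373 in the CD1d-KO replicates. The WT libraries spanned nearly the whole range of both genotypes, with replicate 1 highest and replicate 2 lowest. The mean was 12734 ± 3471 in WT and 10611 ± 2034 in CD1d-KO pMacs (SD, n = 4). This gave a log2 fold change of -0.24 (SE 0.12, 95% interval -0.53 to 0.04, edgeR adjusted p = 0.470). It was -0.17 without replicate 1 (edgeR adjusted p = 0.765), -0.14 without replicate 5 and -0.36 without replicate 2.

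*Cd163* (ENSMUSG00000008845), on chromosome 6 from 124304656 to 124330527 on the plus strand, encodes the receptor for complexes of haptoglobin and haemoglobin, a class I receptor with cysteine-rich repeats. It had the widest difference of the 10 genes and the lowest level. Normalized counts were 385, 376, 240.3 and 277 in WT replicates 1, 2, 3 and 5 and 151, 180, 68.1 and 265 in the CD1d-KO replicates. CD1d-KO replicates 1, 2 and 3 were below every WT library, whereas CD1d-KO replicate 5 lay among the WT libraries and barely under its own partner. The mean was 319.7 ± 72.1 in WT and 166 ± 81.2 in CD1d-KO pMacs (SD, n = 4), 0.489-fold (95% interval 0.330 to 0.726). The log2 fold change was -1.03 (SE 0.24, edgeR adjusted p = 0.149), and the log2 ratio within pairs 1, 2, 3 and 5 was -1.35, -1.06, -1.81 and -0.06. In DESeq2 it was -1.07 and passed the thresholds (adjusted p = 0.00654), and it also passed in edgeR when genes were not filtered on low counts (adjusted p = 2.64e-04). Over all 14 alternatives the log2 fold change ran from -1.38 to -0.83 and the adjusted p from 2.64e-04 to 0.997, and without replicate 1 they were -0.91 and 0.407 in edgeR. In TPM the level in pair 5 was 6.63 in WT and 6.90 in CD1d-KO pMacs, the reverse of the order in normalized counts. In CD1d-KO replicate 5 the B cell markers and the markers of small peritoneal macrophages and dendritic cells had their highest sums, 4770 and 11361 counts. Of the second sum, *H2-Aa* made up 7596 counts and *Retnla* 2700. *H2-Aa*, *Ccr2* and *Flt3* were highest in this library, and the other markers of that list were not. The part of these cells in the *Cd163* values was not tested.

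The remaining receptors of other classes differed less between genotypes. *Cd68* (ENSMUSG00000018774), on chromosome 11 from 69664213 to 69666153 on the minus strand, encodes macrosialin, a class D glycoprotein of late endosomes that binds oxidized LDL. The libraries had 2783, 3265, 4769 and 4086 normalized counts in WT replicates 1, 2, 3 and 5 and 3166, 4000.4, 4321 and 4449.8 in the CD1d-KO replicates, and the genotypes overlapped. Its log2 fold change was 0.12 (SE 0.09, 95% interval -0.09 to 0.32, edgeR adjusted p = 0.651), and 0.09 without replicate 1 (edgeR adjusted p = 0.851). *Stab1* (ENSMUSG00000042286), on chromosome 14 from 31139013 to 31168641 on the minus strand, encodes stabilin-1, a class H receptor that clears acetylated LDL and apoptotic cells. Its normalized counts were 1886, 1809, 2049.9 and 1161 in WT and 1563, 2029, 1730.5 and 1820.4 in CD1d-KO replicates 1, 2, 3 and 5. The WT library of replicate 5 was the lowest of the 8, and the CD1d-KO library was the higher of pairs 2 and 5 and the lower of pairs 1 and 3. The fitted log2 difference was 0.07 (SE 0.15, 95% interval -0.27 to 0.42, edgeR adjusted p = 0.902), its sign turned without replicate 5 (-0.12), and it was 0.19 without replicate 1 (edgeR adjusted p = 0.773). *Cxcl16* (ENSMUSG00000018920), on chromosome 11 from 70453983 to 70459984 on the minus strand, encodes a membrane-bound chemokine, the class G receptor SR-PSOX, which binds oxidized LDL and, once shed, attracts cells that bear CXCR6. Its normalized counts were 3478, 4133, 4613 and 3869.7 in WT and 3229, 4734, 5594 and 4109 in CD1d-KO replicates 1, 2, 3 and 5. For this gene the log2 fold change was 0.11 (SE 0.08, 95% interval -0.08 to 0.31, edgeR adjusted p = 0.642), and without replicate 1, the one pair in which it was lower in CD1d-KO pMacs, it was 0.19 (edgeR adjusted p = 0.591). *Stab1* shares 112 exonic bases with *Nt5dc2* and *Cxcl16* shares 552 with *Zmynd15*, each on the opposite strand, and the strand setting of the counting is not given in the sources used here. Reads from these overlaps may therefore be of either gene. Before scaling, the whole *Nt5dc2* gene had at most 107.6 expected counts in a library, and *Zmynd15* had 469.9 to 716. How many counts of *Stab1* and *Cxcl16* came from the overlaps was not tested.

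**Figure D2:**
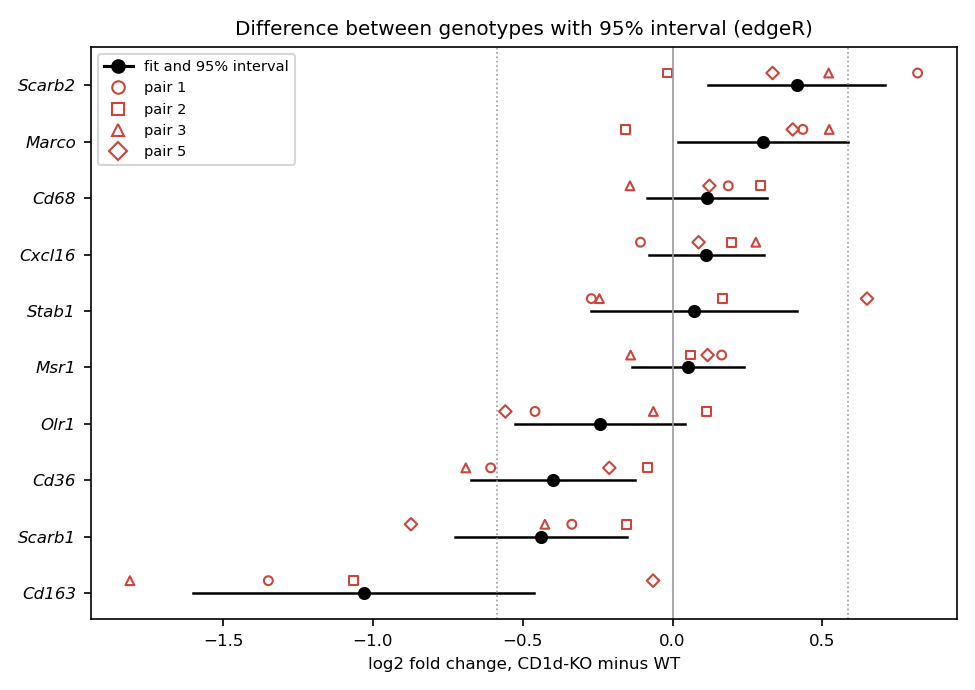
log2 fold change of each receptor gene, CD1d-KO minus WT, from the edgeR fit (black points, bars are 95% intervals before adjustment) and the log2 ratio within each of the 4 pairs (open symbols), with dotted lines at a fold change of 1.5 in either direction. *Cd163*, at -1.03, is the one fitted value beyond a dotted line, and its pair ratios run from -1.81 to -0.06.

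Libraries of the same genotype also differed from each other across the receptors. WT replicate 1 was the highest WT library for 3 genes (*Cd36*, *Olr1* and *Cd163*) and the lowest for 5 (*Msr1*, *Marco*, *Scarb2*, *Cd68* and *Cxcl16*), 8 of the 10 in all, and WT replicate 3 was at an extreme for 7. WT replicate 1 also had the lowest count of the macrophage marker *Fcgr1*, 77.9 against 526 to 2997 in the other WT libraries. Among the CD1d-KO libraries, replicates 1, 2, 3 and 5 were at an extreme for 6, 5, 5 and 4 of the 10 genes. CD1d-KO replicate 1 had the highest *Cd36* and *Olr1* of its genotype, as its WT partner had. Among the genes whose levels over the 8 libraries were most like *Cd36*, by Pearson correlation of log2 CPM (counts scaled to library size) among 9940 genes, were *Zfp715* (0.981) and *Alms1* (0.97). *Alms1* encodes a protein of the base of cilia. The Spearman correlations with *Cd36* were 0.786 for *Zfp715* and 0.905 for *Alms1*. These are descriptions over 8 libraries that share the high value of WT replicate 1.

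The levels of different genes were compared in TPM, which accounts for transcript length. *Marco* had the highest mean over the 8 libraries (1207 TPM, range 905 to 1814), followed by *Cd36* (951, 571 to 1523), *Msr1* (485, 414 to 565), *Olr1* (433, 297 to 697), *Cd68* (341, 269.8 to 421) and *Cxcl16* (246, 209.8 to 289). *Stab1* (71.0 TPM, 39.8 to 103), *Scarb2* (69.2, 48.6 to 91.3), *Scarb1* (14.6, 6.31 to 21.2) and *Cd163* (6.03, 1.52 to 10.8) followed at lower levels. In WT pMacs *Cd36* and *Marco* ranked 98 and 99 among all genes by mean TPM, and *Scarb1* and *Cd163* ranked 5490 and 7763. Neighbours in this order were compared within each library by an exact permutation test of the paired log2 differences (two-sided, adjusted over 9 pairs by Benjamini-Hochberg). In 5 of the 9 pairs the first gene was higher in 8 of 8 libraries, with p = 0.00781, the smallest the exact test can give, and an adjusted p of 0.0141. These were *Cd36* over *Msr1* (1.91-fold), *Cd68* over *Cxcl16* (1.38-fold), *Cxcl16* over *Stab1* (3.56-fold), *Scarb2* over *Scarb1* (4.99-fold) and *Scarb1* over *Cd163* (2.57-fold). The other 4 pairs did not differ beyond their spread: *Marco* and *Cd36* (adjusted p = 0.211, exact test), *Msr1* and *Olr1* (0.343), *Olr1* and *Cd68* (0.164) and *Stab1* and *Scarb2* (0.945). With 1 pair left out, the 6 remaining libraries allow no exact p below 0.0312, which passes after adjustment only where at least 6 of the 9 pairs reach it. That was so without replicate 1 or 2 (6 passed) and not without replicate 3 or 5 (5 pairs reached it and 0 passed, adjusted p = 0.0563, exact test). *Marco* was above *Cd36* in 7 of the 8 libraries. Without replicate 1 this pair was among those that passed (adjusted p = 0.0469, exact test), and without replicate 2 it was not. The test takes the 8 libraries as independent, although libraries of the same number deviated together. With the mean of each replicate pair as the unit, chosen after seeing the data, the smallest exact p of 4 pairs is 0.125, and 0 could pass.

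**Figure D3:**
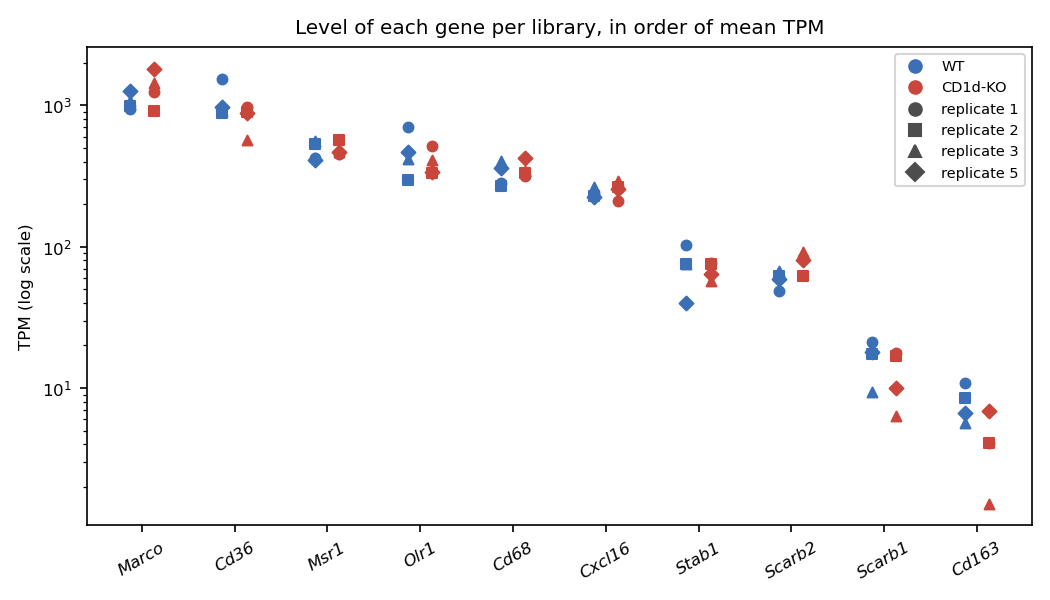
Level of each receptor gene in TPM (log scale) in the 4 WT (blue) and 4 CD1d-KO (red) libraries, ordered by the mean over all 8. *Marco* (mean 1207 TPM) and *Cd36* (mean 951 TPM) overlap, and *Cd163* lies lowest, between 1.52 and 10.8 TPM.

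RSEM gives each gene a transcript length weighted by the isoforms it assigns, and this length sets the TPM. For *Scarb2*, *Marco*, *Cd68* and *Cd163* it was 94.5% to 99.7% of the longest annotated transcript. For *Stab1* it was 33.0% on average, from 2196 to 3116 bases where the longest transcript has 7999, and the estimate was longer for CD1d-KO in each of the 4 pairs, though the genotypes overlapped. The weighted length of *Cd36* was 58.6% of the longest transcript (1871 to 2091 bases), and that of *Msr1* 58.2%. For *Scarb1* it ranged from 1865 to 2470 bases, with the shortest estimates in replicate 3 of both genotypes, where its counts were also lowest. No receptor had lengths that separated the genotypes. When counts were instead divided by the length of the longest transcript, *Marco* and *Cd36* stayed first and second and *Scarb1* and *Cd163* last, while *Msr1* moved from the third to the fifth place and *Stab1* from the seventh to the eighth.

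**Figure D4:**
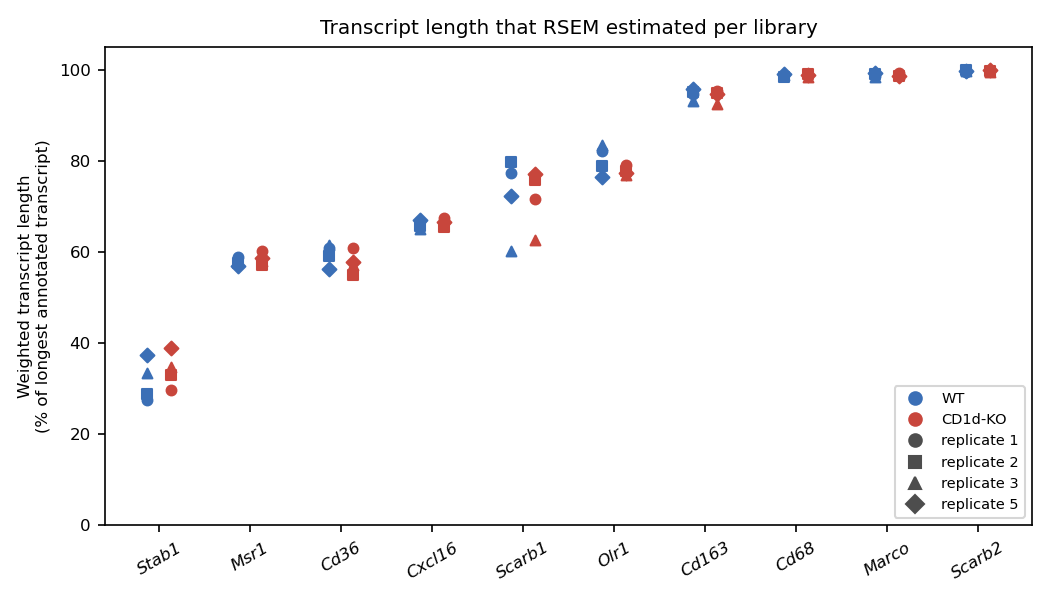
Transcript length that RSEM weighted by isoform for each receptor gene and library, as a percentage of the longest annotated transcript, in WT (blue) and CD1d-KO (red) libraries. Points for *Scarb2*, *Marco* and *Cd68* lie close to 100%, those for *Stab1* average 33.0%, and WT and CD1d-KO points overlap for each gene.

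Promoter windows are shown for *Cd36* and *Cd163*, which were lower in every pair, and for *Marco* and *Scarb2*, which had the highest fold changes, so that the start regions of receptors on both sides of 0 can be read together. The RefSeq table of GRCm38.p6 held 7 of the 10 genes and gives 250 bases before to 50 after each start, 5′ to 3′ on the strand of the gene. The *Cd36* window is chr5:17835847-17836146 (minus strand), the *Cd163* window chr6:124304401-124304700 (plus strand), the *Marco* window chr1:120504975-120505274 (minus strand) and the *Scarb2* window chr5:92505608-92505907 (minus strand). The *Cd36* and *Scarb2* windows lie wholly inside the annotated genes, downstream of their first base. Capitals mark matches on either strand to any of 6 motifs.
Cd36: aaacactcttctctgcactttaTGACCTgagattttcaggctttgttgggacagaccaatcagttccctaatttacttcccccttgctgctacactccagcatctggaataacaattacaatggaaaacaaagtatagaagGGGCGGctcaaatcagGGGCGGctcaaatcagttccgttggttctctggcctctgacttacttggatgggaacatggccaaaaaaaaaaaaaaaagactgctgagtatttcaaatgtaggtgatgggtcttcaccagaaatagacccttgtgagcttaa
Cd163: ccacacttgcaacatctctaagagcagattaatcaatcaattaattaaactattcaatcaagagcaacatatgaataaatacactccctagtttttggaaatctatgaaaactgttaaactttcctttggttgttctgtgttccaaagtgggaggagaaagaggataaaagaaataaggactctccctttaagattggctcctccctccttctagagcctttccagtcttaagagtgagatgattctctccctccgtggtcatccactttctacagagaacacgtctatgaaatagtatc
Marco: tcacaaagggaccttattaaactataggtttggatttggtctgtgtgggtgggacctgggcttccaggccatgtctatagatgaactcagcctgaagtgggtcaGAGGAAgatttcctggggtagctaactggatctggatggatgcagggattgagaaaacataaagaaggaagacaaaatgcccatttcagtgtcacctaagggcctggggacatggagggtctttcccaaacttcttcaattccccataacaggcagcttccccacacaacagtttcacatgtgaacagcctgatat
Scarb2: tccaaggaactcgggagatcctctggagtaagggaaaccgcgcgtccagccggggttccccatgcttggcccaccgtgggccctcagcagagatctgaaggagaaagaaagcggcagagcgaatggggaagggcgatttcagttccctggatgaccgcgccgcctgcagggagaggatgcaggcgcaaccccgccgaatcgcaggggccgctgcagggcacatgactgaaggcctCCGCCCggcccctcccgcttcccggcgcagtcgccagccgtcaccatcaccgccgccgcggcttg
The motifs were TATAAA (a box near many start sites, found in 13.6% of 32851 windows of this length), GAGGAA (core of PU.1 sites, 28.3%), TGANTCA (AP-1, 7.81%), AGGTCA (a single unit of nuclear receptor sites, 16.3%), GGGCGG (GC box, 35.7%) and TTGCGNAA (C/EBP, 0.798%), and their matches in the 4 windows did not overlap one another. The *Cd36* window held 1 such single unit and 2 GC boxes, *Marco* 1 PU.1 core, *Scarb2* 1 GC box and *Cd163* no match. PU.1 is a factor of the myeloid lineage, and nuclear receptors mostly bind a pair of the AGGTCA unit. The GC content was 67.3% in the *Scarb2* window, 47.3% in *Marco*, 43.0% in *Cd36* and 38.0% in *Cd163*. A match describes the letters of the window only.

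Genes that work with the receptors were examined in 7 further lists. In each of them edgeR called 0 genes, none had an adjusted p under 0.05, and DESeq2 called 0. The counts at an unadjusted p under 0.05 are therefore given as descriptions, beside 7.35% higher and 5.01% lower over all genes tested. Of the other scavenger receptors, 6 of 13 were tested, with 1 higher, 0 lower and a median log2 fold change of 0.16. *Colec12*, a collectin that binds oxidized LDL, had 594 ± 56.7 counts in WT against 689 ± 99.9 in CD1d-KO pMacs (log2 fold change 0.21, edgeR adjusted p = 0.376). *Scarf2*, a receptor of class F, had 13.8 ± 6.36 and 22.1 ± 7.50 counts (0.66, edgeR adjusted p = 0.562). The 7 not tested, among them *Stab2* and *Scara5*, had too few counts. The receptors for native lipoproteins had the most genes that were lower at an unadjusted p under 0.05: of 9 tested of 11, 5 were lower and 2 higher, with a median of -0.18. *Sort1*, which encodes the sorting receptor sortilin, had 1555 ± 545 counts in WT against 1251 ± 508 in CD1d-KO pMacs and was lower in 4 of 4 pairs (log2 fold change -0.32, edgeR adjusted p = 0.233).

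Of 12 tested co-receptors and signalling partners of CD36, 2 were higher and 1 lower at an unadjusted p under 0.05, with a median log2 fold change of 0.07. *Cd81*, a tetraspanin found in complexes with CD36, had 2260.3 ± 471 counts in WT against 1761 ± 504 in CD1d-KO pMacs and was lower in 4 of 4 pairs (log2 fold change -0.38, edgeR adjusted p = 0.144). *Itgb1*, the integrin beta chain of such complexes, had 20871 ± 5447 and 26704 ± 4834 counts and was higher in 4 of 4 pairs (0.38, edgeR adjusted p = 0.179). Partners of the same receptor thus had fold changes on both sides of 0. Of 7 tested ligands and partners of the receptors, 0 were higher and 1 lower, with a median of -0.24. *Adam10*, the protease that sheds CXCL16, had 3331 ± 446 and 2769.5 ± 245 counts (-0.26, edgeR adjusted p = 0.203), and *Hmox1*, which degrades the haem that CD163 brings in, had 42911 ± 13913 and 35493 ± 7099 (-0.24, edgeR adjusted p = 0.461). *Thbs1*, which encodes the CD36 ligand thrombospondin-1 and was singled out after its values were seen, had 646608 ± 154843 counts in WT against 729986 ± 217828 in CD1d-KO pMacs (0.16, edgeR adjusted p = 0.606).

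Of 13 genes of fatty acid handling, 2 were higher and 0 lower at an unadjusted p under 0.05, with a median log2 fold change of 0.02. They were the acyl-CoA synthetase genes *Acsl1*, with 1340.3 ± 430.2 counts in WT against 1773 ± 557 in CD1d-KO pMacs (0.41, edgeR adjusted p = 0.233), and *Acsl5*, with 2076 ± 185 and 2382 ± 354 (0.19, edgeR adjusted p = 0.311). Of 14 transcription factors that act on these receptors or on macrophage identity, 2 were higher and 0 lower, with a median of -0.02. *Nr1h3*, which encodes the oxysterol receptor LXR alpha, had 136 ± 22.1 and 189 ± 47.4 counts (0.45, edgeR adjusted p = 0.169) and *Maf*, a factor of macrophage identity, 485 ± 244 and 611 ± 206 (0.42, edgeR adjusted p = 0.246). *Pparg*, which encodes PPAR gamma, a known regulator of *Cd36*, and was also chosen after its values were seen, had 61.0 ± 15.6 and 41.4 ± 17.3 counts (-0.60, edgeR adjusted p = 0.450), lower in 3 of the 4 pairs. Of 6 lysosomal genes, 1 was higher and 1 lower, with a median of 0.03. *Npc2*, the lysosomal cholesterol carrier, had 10493 ± 3341 and 12269 ± 3099 counts (0.25, edgeR adjusted p = 0.319), and *Lipa*, the acid lipase that splits the cholesteryl esters brought in by these receptors, had 15481 ± 2489 and 12324 ± 1262 (-0.32, edgeR adjusted p = 0.359). *Npc2* was higher and *Lipa* lower in 4 of 4 pairs, but for both genes the libraries of pair 2 were nearly equal. There the WT library stood at 12669.1 and its CD1d-KO partner at 12678.5 for *Npc2*, and at 12563.8 and 12561.8 for *Lipa*. Without replicate 1 no gene of the 7 lists had an edgeR adjusted p under 0.05, the lowest being 0.266 (*Cd81*), and the genes of these lists named above kept their direction.

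**Figure D5:**
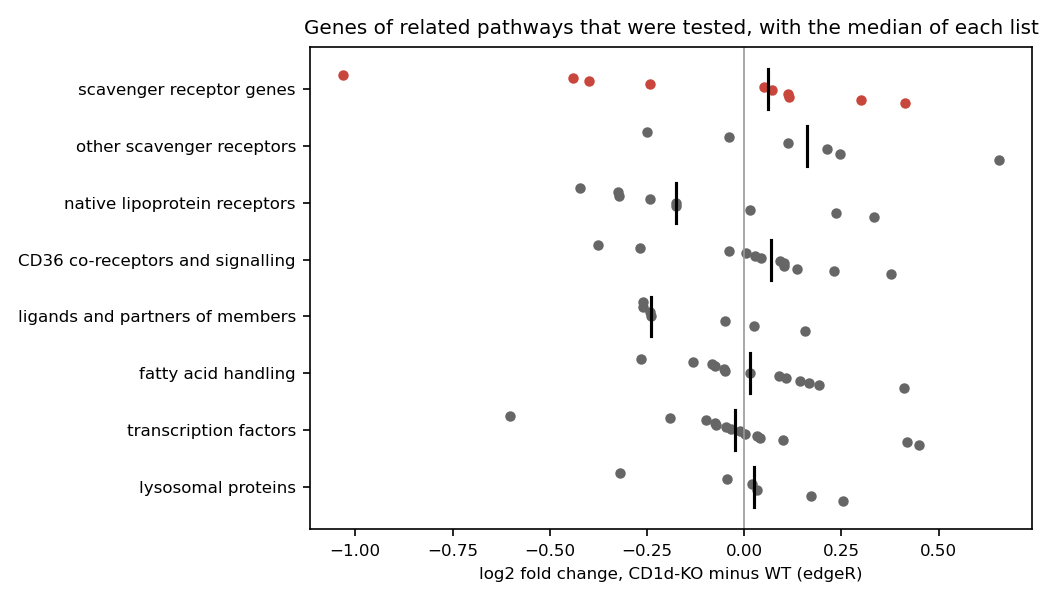
log2 fold change, CD1d-KO minus WT, of every tested gene of the receptor list (red) and of 7 related lists (grey), with a vertical bar at the median of each list. The medians run from -0.24 for ligands and partners to 0.16 for other scavenger receptors, and the receptor list spans the widest range, from -1.03 (*Cd163*) to 0.42 (*Scarb2*).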

How the data were processed

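Per the study's methods, single-end reads of polyadenylated RNA were trimmed with Cutadapt, aligned to GRCm38 with STAR 2.5.2a and quantified with RSEM 1.3.0. For each of 48795 Ensembl genes the authors deposited expected counts, which are not normalized and share reads among similar genes, TPM and an isoform-weighted length. Here expected counts were rounded and scaled by TMM to the mean library size (normalized counts). Genes kept by filterByExpr were tested in edgeR 4.0.16 (R 4.3.3) with genotype and replicate number as terms, and p-values were adjusted by Benjamini-Hochberg over 13040 genes. DESeq2 1.42.0 and limma 3.58.1 on log2(TPM + 1) were alternatives. The study itself used an earlier version of DESeq2, with genotype and replicate as covariates. Replicate numbers pair the libraries: the same-number correlation of deviations from the genotype means was 0.487, 0.387, 0.505 and 0.207 in pairs 1, 2, 3 and 5, each over 0.1, though WT replicate 5 correlated slightly more with a library of another number (0.22). No 2 libraries agreed within sampling noise. Members were named in full; from each other list the 2 tested genes with the smallest p were named, with the 3 genes most like *Cd36* among those with a mean of at least 50 normalized counts. Of the genes these rules name, 2 are not reported here. The marker lists were used for cell types only. The members and lists were chosen with earlier results of these data known. Gene positions came from GENCODE M21 (99.1% of IDs matched) and promoters from RefSeq. The scripts were tested on simulated data. Each library is 1 mouse, the labels name no batch, and the study states that groups were processed side by side.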

Additional observations from a re-analysis of the deposited data

Results flagged for a closer look

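The normalized count of *Cd36* in WT replicate 1, 26088, stood apart from the other 3 WT libraries, which lay between 17886 and 19075 (ratio of the gap to the range 0.855, above Dixon's 95% critical value for 4 samples). The normalized count of *Cd1d1* in the library labelled CD1d-KO replicate 1, 60.7, stood apart from the other 3, which lay between 0 and 1.14 (ratio 0.981). Of 22 groups examined in this way, chance marks about 1 in 20. Without replicate 1 the log2 fold change of *Cd36* was -0.33 (edgeR adjusted p = 0.529), and without the library labelled CD1d-KO replicate 1 and without the block it was -0.46 (edgeR adjusted p = 0.925).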

How the results depend on the processing

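The number of genes called was 5 (5 higher, 0 lower) and moved to 3 with the replicate block removed, to 236 without a filter on counts (175 higher, 61 lower), to 103 in DESeq2 (70 higher, 33 lower), to 3, 3 and 2 with limma-trend on log2(TPM + 1), on log2(TPM + 0.1) and on genes with any TPM above 0, to 48 at an adjusted p under 0.05 with the fold change threshold (33 higher, 15 lower) and to 53 without that threshold. Leaving out 1 pair gave 3 to 22, the highest without replicate 2 and the lowest without replicates 3 and 5. The number of receptor genes called was 0 and became 1 (*Cd163*) without a filter and in DESeq2. Removing the replicate block changed no receptor call (adjusted p = 0.997 for *Cd163*). The log2 fold changes of the 9 receptors other than *Stab1* kept their direction under all 14 alternatives run; that of *Stab1* turned to -0.035, -0.034 and -0.035 in the 3 limma-trend settings, in the order above, and to -0.117 without replicate 5 (0.188 without replicate 1), and the cause was not tested. Receptor genes higher in every pair numbered 0, and 0 to 2 when 1 pair was left out (*Cxcl16* without replicate 1, *Marco* and *Scarb2* without replicate 2, *Cd68* and *Msr1* without replicate 3), settings chosen after seeing the data. With 1 pair left out, 14.7% to 18.7% of all genes tested were lower and 15.5% to 19.1% higher in every pair left in. *Cd36*, *Scarb1* and *Cd163*, lower in all 4 pairs, necessarily stayed lower in the pairs left in. They were also lower in all 4 pairs under both other scalings, as were 10.3% (DESeq2 size factors) and 11.2% (upper quartile factors) of all genes. Neighbours that differed in the TPM order numbered 5, and 0 to 6 when 1 pair was left out. In the order by the longest transcript, also chosen after seeing the data, they numbered 7. With the mean of each replicate pair as the unit, where the exact test could not pass, they numbered 0. The lowest count of a receptor in a library was 68.1 (*Cd163*).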
